A study of Mus musculus with 10 samples.

Results

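Cathepsins are the proteases of the lysosome, and cystatins are small inhibitors of the cysteine cathepsins. The genes described here were 10 of the 31053 in the count matrix: the cystatin genes Cst7 and Cst3, and the cathepsin genes Ctsa, Ctsb, Ctsc, Ctsd, Ctsh, Ctsl, Ctss and Ctsz, a list of names. All 10 had UMIs in microglia, and all 10 passed the filter on low counts in every comparison. Their levels were read per cell type, per microglial state and per library.

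CD45+ cells of whole brain were profiled with 10x Genomics 3' single-cell RNA sequencing in 4 genotypes: WT, Nlrp3KO, APP/PS1 and Nlrp3KO APP/PS1. APP/PS1 mice express mutant human amyloid precursor protein and presenilin-1 from transgenes in neurons of the central nervous system and form amyloid plaques, and Nlrp3KO mice lack the inflammasome sensor Nlrp3 in the whole body. WT and Nlrp3KO libraries (here non-diseased) were made at 3, 6 and 9 months, and APP/PS1 and Nlrp3KO APP/PS1 libraries at 3 and 9 months. Each of the 10 libraries was a pool of 3 littermates (2 males and 1 female), dissociated with actinomycin D, so there was 1 library per genotype and age and no second pool of any group. Since every age was run as a batch of its own, effects of age cannot be told apart from those of batch.

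The libraries held 45472 cells, of which 40547 were microglia and 4925 were other CD45+ cells by the authors' annotations. Microglia of a library held 9357431 to 35107144 UMIs, with a median of 3978 to 5985 UMIs per cell. Of 45225 cell barcodes, 246 occurred in more than 1 library. Nlrp3 had 0 UMIs in the 5 Nlrp3KO libraries and 4411 in the other 5. Levels are given as CPM, the UMIs of a gene scaled to a total of 1000000 UMIs in the same cells. A 3' UMI stands for 1 captured molecule whatever the length of the transcript, so CPM of different genes were compared without a length correction.

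Cysteine cathepsins are synthesised as inactive zymogens and mature in acid compartments. Ctsb, Ctsl, Ctss, Ctsz, Ctsh and Ctsc encode cysteine cathepsins, Ctsd encodes the aspartic protease cathepsin D, and Ctsa encodes a serine carboxypeptidase that also protects the lysosomal sialidase and β-galactosidase. Cystatin C, the product of Cst3, is secreted, whereas cystatin F, the product of Cst7, is directed to lysosomes, where it restrains cathepsin C and related enzymes in immune cells. Microglia, the resident macrophages of the brain, clear debris through this system, and Cst7 and several cathepsin genes are known markers of disease-associated microglia (DAM).

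All 10 genes are protein-coding, and 4 of them lie on chromosome 2 of GRCm38: Cst3 at chr2:148871722-148875692 (minus strand), Cst7 at chr2:150570415-150578944 (plus strand), Ctsa at chr2:164832873-164841032 (plus strand) and Ctsz at chr2:174427493-174439039 (minus strand). Chromosome 7 holds Ctsc at chr7:88278085-88310888 (plus strand) and Ctsd at chr7:142375911-142388038 (minus strand). The others lie alone, Ctss at chr3:95526786-95556403 (plus strand), Ctsh at chr9:90054152-90076089 (plus strand), Ctsl at chr13:64359337-64370890 (minus strand) and Ctsb at chr14:63122462-63145923 (plus strand). The 3' part of Ctsd overlaps the gene model Gm49369 on the same strand, so the Ctsd counts depend on how reads in the shared part were assigned.

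The sequence before the start of Cst7 is shown because Cst7 had the largest differences between states and libraries. RefSeq promoter windows of GRCm38.p6 matched 8 of the 10 genes (9 windows), and Ctsb and Ctsh were not matched. The 250 bases upstream of Cst7 (chr2:150570165-150570414, plus strand) are printed with the letters GGAAGT, a core that ETS factors such as PU.1 can bind, in capitals:
Cst7: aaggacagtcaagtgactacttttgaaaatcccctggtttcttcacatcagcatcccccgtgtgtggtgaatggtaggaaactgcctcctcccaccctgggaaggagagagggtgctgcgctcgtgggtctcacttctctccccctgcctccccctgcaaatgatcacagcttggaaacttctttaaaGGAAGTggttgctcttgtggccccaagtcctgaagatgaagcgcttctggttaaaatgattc
GGAAGT or its reverse complement ACTTCC occurred in 19.7% of 32851 mouse promoter windows of this length, and in those of Cst7, Ctsa and Ctsc among the members. Rarer was TCACGTGA, which reads the same on both strands, contains the E-box CACGTG, and is the core of the element bound by the lysosomal regulator TFEB. It was found in 0.785% of all windows and in 2 of the 9 member windows, Ctsd and a downstream start of Ctsa, in each case within bases that GENCODE annotates as UTR. The windows of Cst7, Ctsl and Ctsz, which also differed between DAM libraries, did not hold it. The sites of Ctsd (chr7:142387908-142387937) and Ctsa (chr2:164833749-164833772) are printed on the strand of each gene, with the motif in capitals:
Ctsd: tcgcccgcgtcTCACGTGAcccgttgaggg
Ctsa: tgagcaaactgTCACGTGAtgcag
A match of letters is a description of the window and not evidence of binding.

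Microglia devoted a large part of their transcripts to these genes. Summed over all microglia, the 10 genes made up 7.67% of the UMIs. Cst3 alone took 5.33% and ranked 1 among all genes, Ctsd ranked 7 with 9031 CPM and Ctss ranked 11 with 6036 CPM. Ctsz (2395 CPM), Ctsl (1844 CPM), Ctsb (1801 CPM) and Ctsh (1079 CPM) followed, then Ctsa (624 CPM) and Ctsc (520 CPM). Cst7 was far below them at 75.5 CPM, rank 2278.

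The authors divided the microglia into homeostatic microglia (HM), microglia in transition to DAM (TM), DAM, interferon-response microglia (IRM), proliferating microglia (PM) and microglia with an immediate early gene signature (IEG). Because these states are clusters of the same counts, levels across states are descriptions with no test. Cst7 had the widest range, with 12.9 CPM in HM (95% exact Poisson interval 12.3 to 13.5), 59.1 CPM in TM (55.1 to 63.4) and 1511 CPM in DAM (1479 to 1543), which is 117-fold above HM. That fold rests on the APP/PS1 libraries: DAM held 2157 CPM pooled over those and 115 CPM pooled over the non-diseased ones, the log2 ratio of DAM to HM ranged from 2.21 to 7.55 between libraries, and the log2 ratio of the library medians was 3.82, against 6.87 for the pooled levels. IRM held 49.1 CPM, PM 136 CPM and IEG 163 CPM of Cst7, pooled over libraries. IEG of APP/PS1 and Nlrp3KO APP/PS1 held 99.1 and 115 CPM at 3 months, and 383 and 516 CPM at 9 months. Non-diseased IEG held 54.6 to 282 CPM. TM held 28.1 to 122 CPM in APP/PS1 and 27.5 to 65.7 CPM in non-diseased libraries. For IRM these ranges were 44.5 to 109 and 11.8 to 58.4 CPM. Of the 700 Cst7 UMIs in PM, 346 came from 1 library, Nlrp3KO APP/PS1 at 9 months (688 CPM). PM of Nlrp3KO APP/PS1 at 3 months and of APP/PS1 at 9 months held 198 and 187 CPM. APP/PS1 at 3 months held 3.69 CPM, and the non-diseased libraries 19.8 to 47.4 CPM. Without the 9-month Nlrp3KO APP/PS1 library, an alternative added after seeing the data, PM held 76.2 CPM. These intervals cover counting error only.

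**Figure D1:**
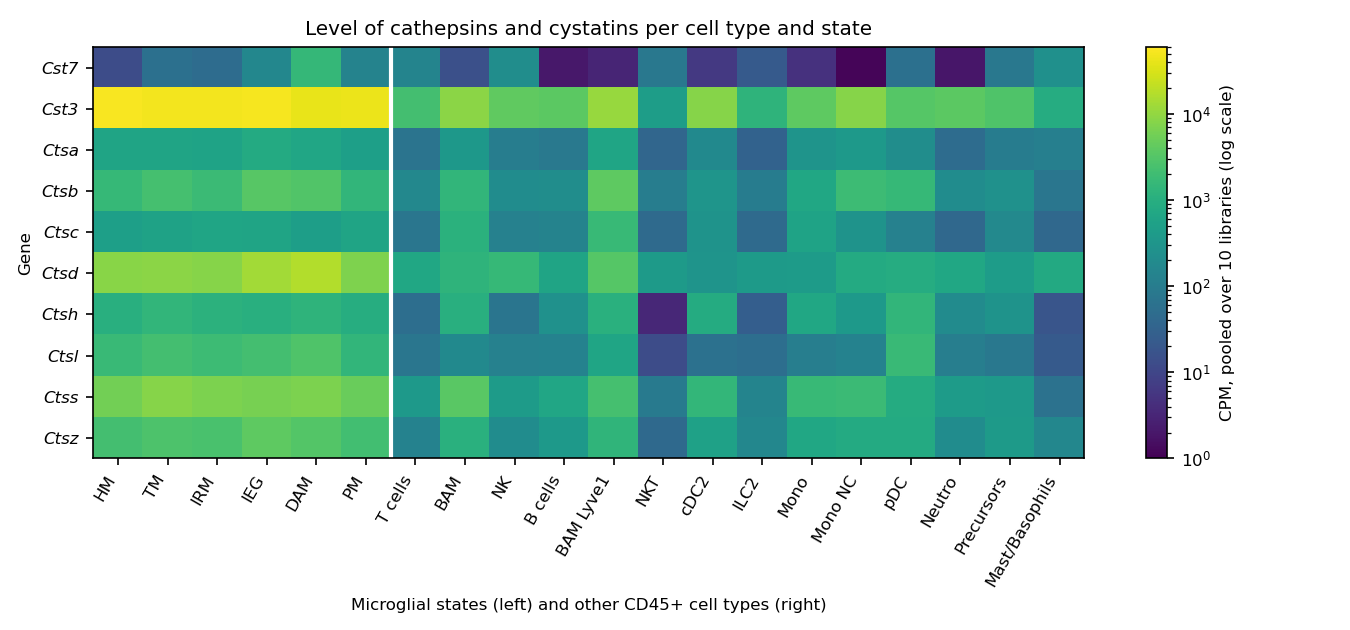
Heat map of the level of each gene (rows) in the 6 microglial states and 14 other CD45+ cell types with at least 20 cells (columns), as CPM pooled over the 10 libraries on a logarithmic colour scale. Cst3 is brightest in microglia, Cst7 stands out in DAM (1511 CPM), and border-associated macrophages hold Ctsb and Ctsc near or above the HM level.

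Ctsd, Ctsb, Ctsl and Ctsz were also higher in DAM than in HM, by less than Cst7. Ctsd, whose product is the main aspartic protease of the lysosome, was at 8573 CPM in HM and 16893 CPM in DAM (1.97-fold). Ctsb, an enzyme with both endopeptidase and carboxypeptidase activity, went from 1588 to 3072 CPM (1.93-fold), and Ctsl, a strong endopeptidase, from 1746 to 2875 CPM (1.65-fold). The log2 ratios of these pooled levels were 0.98 for Ctsd, 0.95 for Ctsb and 0.72 for Ctsl. By library medians they were 0.57, 0.65 and 0.49. Pooled DAM held 19438 CPM of Ctsd in APP/PS1 and 11396 CPM in non-diseased libraries. In all 10 libraries the level in DAM was above that in HM for Cst7, Ctsb, Ctsd and Ctsl. By pooled level, every member but Cst3 and Ctsc was higher in DAM. Among 10986 genes with at least 200 UMIs over HM and DAM, 23.1% had a higher pooled level in DAM. No such share was computed for a gene higher in DAM in all 10 libraries.

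Ctsz and Ctsa did not keep 1 direction across libraries. Pooled, Ctsz, a carboxypeptidase, was at 2209 CPM in HM and 3127 CPM in DAM (1.42-fold), and it was higher in DAM in all 4 APP/PS1 libraries but in 2 of the 6 non-diseased ones. Pooled Ctsa was at 613 CPM in HM and 684 CPM in DAM, with the same split of 4 and 2 libraries, and without cells of a doublet score over 0.5 the log2 ratio of DAM to HM fell from 0.16 to -0.003. Cst3 went the other way: its level was 54813 CPM in HM and 41572 CPM in DAM (0.758-fold), and DAM were below HM in each of the 10 libraries. Among 10986 genes with at least 200 UMIs over HM and DAM, the median log2 ratio of DAM to HM was -0.29. That median is of pooled levels, and Cst3 lay near it, at -0.40 pooled. By library medians Cst3 was at -0.22, a measure for which no median over all genes was computed.

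For the remaining cathepsins the pooled levels of DAM and HM were within 1.23-fold of each other. Ctss, whose enzyme stays active at neutral pH and trims the invariant chain of MHC class II, was highest in TM (8161 CPM), against 5770 CPM in HM and 6787 CPM in DAM. Ctsh, an aminopeptidase, was highest in TM as well, with 1377 CPM against 1046 CPM in HM and 1290 CPM in DAM. Ctsc, which activates granule serine proteases in leukocytes, lay between 481 CPM in DAM and 655 CPM in IRM. Ctsc also split by library: it was higher in DAM than in HM in 5 of the 6 non-diseased libraries and in 0 of the 4 APP/PS1 libraries, with 895 against 500.0 CPM in WT and 1044 against 548 CPM in Nlrp3KO at 3 months.

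IEG microglia, a state that the study names as a known response to tissue dissociation, carried the highest pooled levels of 3 members. Ctsb reached 3374 CPM there, Ctsz 3954 CPM and Ctsa 826 CPM. The order of IEG and DAM varied with the library: DAM was above IEG in 3 of 4 APP/PS1 libraries for Ctsb, in 2 of 4 for Ctsa and in 1 of 4 for Ctsz, and in 0 of 6 non-diseased libraries for each of them. Ctsd was second in IEG with 12879 CPM, behind DAM, and DAM was above IEG in 4 of 4 APP/PS1 and 2 of 6 non-diseased libraries. For Cst7, DAM was above IEG in 4 of 4 APP/PS1 and 4 of 6 non-diseased libraries. PM were lowest or second lowest in the 6 states for Cst3, Ctsa, Ctsb, Ctsd, Ctsh, Ctsl, Ctss and Ctsz.

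Outside microglia, the members divided by cell type. The authors' types carried their own markers, since all fixed markers of border-associated macrophages (BAM), monocytes, neutrophils, T, NK and B cells, conventional dendritic cells (cDC2) and ILC2 were higher in the matching type than in HM. Transcripts of lysed microglia can add UMIs to other cells, so each level is set against P2ry12, Tmem119 and Sall1, 3 microglial genes that were at 3.27 to 3.97% of their HM level in T cells and at 6.23 to 6.85% in B cells. Cst3 was at 6.85% of its HM level in B cells, within that range, and is read there as background. In T cells it was at 4.10%, just above the range. The 3 microglial genes were at 6.73 to 8.38% in NK cells, 0.147 to 0.217% in NKT cells and 0 to 0.526% in mast cells and basophils. They were at 4.65 to 5.39% in plasmacytoid dendritic cells, 2.86 to 3.01% in monocytes and 6.62 to 8.37% in non-classical monocytes.

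Cst7 in T, NK and NKT cells lay above that background. Its level was 224 CPM in NK cells (548 cells), 145 CPM in T cells (1598 cells) and 83.0 CPM in NKT cells (204 cells), all above HM. Mast cells and basophils held 248 CPM (28 cells, 54 UMIs, interval 187 to 324). B cells held 1.997 CPM (7 UMIs, interval 0.803 to 4.11), BAM 14.7 CPM and monocytes 4.75 CPM, so monocytes and B cells were below HM and BAM were close to HM. With intervals that overlap, mast cells and NK cells did not differ beyond counting error.

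BAM held several cathepsins at or above the level of HM. In Lyve1 BAM, Ctsb was at 3905 CPM (246% of HM), Ctsc at 1686 CPM (341%), Ctsh at 1073 CPM (103%) and Ctsa at 643 CPM (105%), while Ctsd and Ctsl were at 37.7% and 36.5% of HM. In the other BAM, Ctsc reached 1148 CPM (233%) and Ctss 3560 CPM (61.7%), while Cst3, Ctsd and Ctsl were at 15.8%, 15.0% and 10.7% of HM. The microglial genes used as background were at 3.48 to 8.65% of HM in BAM and at 5.38 to 9.34% in Lyve1 BAM.

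Plasmacytoid dendritic cells (pDC, 102 cells) were the only other type, among those with at least 20 cells, in which Ctsl and Ctsh both reached the HM level, with 1760 CPM of Ctsl and 1420 CPM of Ctsh. Ctsb was at 1591 CPM in pDC, against 1588 CPM in HM. Non-classical monocytes held 1902 CPM of Ctsb and monocytes 581 CPM of Ctsc, above 1588 and 494 CPM in HM. Ctsz stayed below the HM level in all 14 other types, with the highest value in Lyve1 BAM (1332 CPM).

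Across the 20 types and states, the genes most like each member were found by Pearson's r of log2(CPM + 1) among 12235 genes, as a description. Genes close to Cst3 included Itgb5 (r = 0.98) and Qk (r = 0.97). Ctss was closest to Aif1 (r = 0.98), which encodes the macrophage protein Iba1, then Lacc1 and Cyfip1. Ctsd followed Gpr34 (r = 0.98), Nfia and Dagla, and Ctsl followed Siglech (r = 0.98), Iffo1 and Atp6v1c1.

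Ctsb was nearest to Gm5086 (r = 0.96), Lipa and Man1c1, Ctsa to Sgpl1 (r = 0.97) and Atp6ap1, and Ctsc to Clta (r = 0.95), Mfsd1 and Ctnnd1. Ctsh was nearest to Pld4 (r = 0.98), Plekho1 and Mpeg1, and Ctsz to Tns3 (r = 0.98), Cyfip1 and Gusb. Cst7 had no close partner: its highest value was 0.77, for Denr, followed by Dnajb6 and Ssbp2. The profiles share libraries, depth and background RNA.

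Whether amyloid was accompanied by other levels in microglia was asked over 4 pairs of libraries of the same age and Nlrp3 genotype. Over all microglia, Cst7 measured 28.4 CPM in APP/PS1 and 78.3 CPM in Nlrp3KO APP/PS1 mice of 3 months. At 9 months the same genotypes reached 325 and 571 CPM. The 6 non-diseased libraries ranged from 15.2 to 40.0 CPM with a median of 18.9 CPM. All APP/PS1 libraries were above the non-diseased library of their pair, and 3 of 4 were above every non-diseased library.

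The fitted log2 fold change of Cst7 was 2.68 (SE 0.49), and its adjusted p was 0.248 (edgeR quasi-likelihood test with Benjamini-Hochberg adjustment over 12282 genes, 8 libraries), so Cst7 was not called. The limits of a call were 0.05 for the adjusted p and 1 for the size of the log2 fold change, and 0 of the 10 members passed both, against 0.0407% of all genes tested (5 genes; 918 had an unadjusted p under 0.05, and DESeq2 called 22). DESeq2 called Cst7 (log2 fold change 2.66, adjusted p = 0.0181). The 10 members had a median log2 fold change of 0.11, against 0.003 for all genes, and 2 of them, Cst7 and Ctsl, had an unadjusted p under 0.05. None had CPM in the 4 APP/PS1 libraries all above or all below those of the 6 non-diseased libraries, which was the case for 0.896% and 0.537% of genes.

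No other member moved by more than a log2 fold change of 0.24 over all microglia. Ctsl was at 2238 CPM in APP/PS1 and 2435 CPM in Nlrp3KO APP/PS1 at 9 months, above the non-diseased range of 1704 to 1922 CPM, but at 1733 and 1862 CPM at 3 months, within it (log2 fold change 0.24, SE 0.09, adjusted p = 0.637, edgeR). Ctsd had the same pattern, with 10443 and 11022 CPM at 9 months, 8935 and 8705 CPM at 3 months and 8072 to 9304 CPM in non-diseased libraries (log2 fold change 0.19, SE 0.11). When a pair was left out, the value ran from 0.14 to 0.33 for Ctsl and from 0.07 to 0.27 for Ctsd. The difference between the amyloid effects at 9 and 3 months had an unadjusted p under 0.05 for Cst7, Ctsd and Ctsl, but an adjusted p of 0.880 for each (edgeR, 8 libraries), and this interaction called 0 members and 0% of all genes (601 genes at an unadjusted p under 0.05, 6 genes called by DESeq2).

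In HM alone the amyloid effects on Cst7, Ctsb, Ctsd and Ctsl were smaller. Cst7 in HM was at 39.1 and 33.2 CPM in the 9-month APP/PS1 and Nlrp3KO APP/PS1 libraries, 9.71 and 14.03 CPM at 3 months, and 7.82 to 17.7 CPM in non-diseased libraries, with a log2 fold change of 0.79 (SE 0.17). Without DAM, all other microglia gave 1.39 (SE 0.30) for Cst7. Neither of these values was called, and neither had an adjusted p under 0.05 (edgeR). For Ctsd the value in HM was -0.0005 (SE 0.06), for Ctsb 0.001 (SE 0.05) and for Ctsl 0.13 (SE 0.07), none of which was called. In the summed libraries, more DAM and more RNA of a gene per DAM cannot be told apart.

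DAM made up 0.431 to 3.79% of the microglia of the non-diseased libraries, 0.779 and 1.01% of those of the 3-month APP/PS1 libraries and 11.7 and 11.5% of those of the 9-month ones. The share of microglial Cst7 UMIs that lay in DAM was 3.53 to 14.2% in non-diseased libraries, 35.5% in APP/PS1 and 58.2% in Nlrp3KO APP/PS1 at 3 months, and 74.1 and 76.9% at 9 months. Ctsd came next at 9 months, with 26.4 and 29.6% of its UMIs in DAM, when DAM held 15.0 and 15.8% of all microglial UMIs. Cst3 was under that share, with 12.3 and 11.9%.

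**Figure D2:**
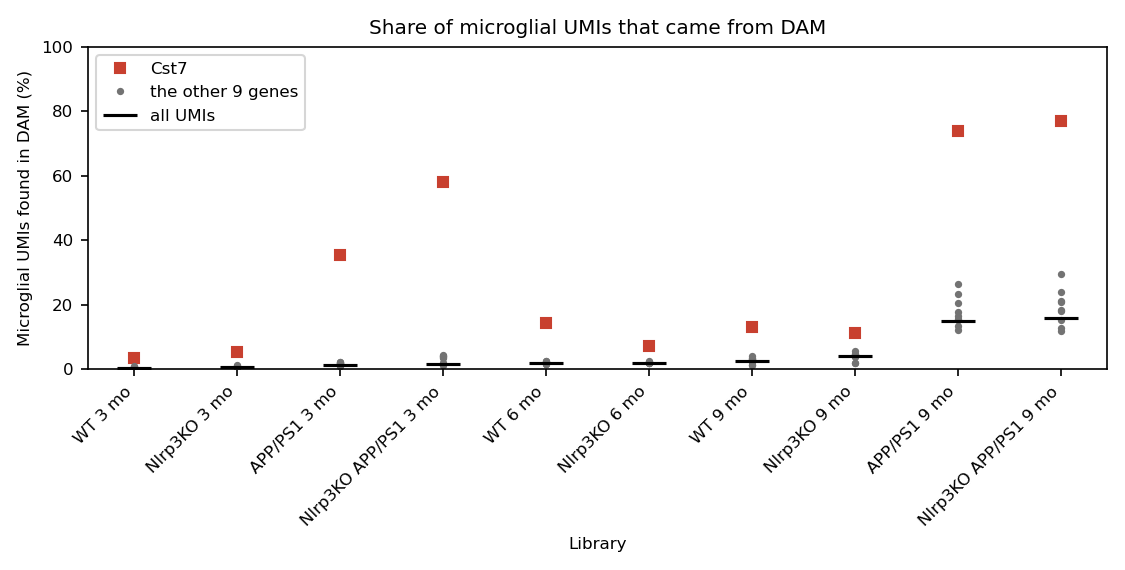
Share of the microglial UMIs of each gene that came from DAM (y axis, percent) in each library (x axis); red squares are Cst7, grey points the other 9 genes and black bars all UMIs. Cst7 lies above the black bar in every library, most in the 9-month APP/PS1 libraries (74.1 and 76.9%).

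Cells called DAM were then compared between libraries, a comparison added after the levels had been seen. DAM numbered 24 to 253 cells per library (160958 to 1659976 UMIs), and their membership rests on the same counts, so the cells compared may differ in kind as well as in level. Lpl, a DAM gene, was at 6.83 to 96.7 CPM in DAM of non-diseased libraries and at 348 to 784 CPM in DAM of APP/PS1 libraries. Of the DAM of a library, 32.2 to 92.2% (non-diseased) and 75.0 to 98.0% (APP/PS1) were also called DAM by the authors' annotation of all CD45+ cells. The share with a doublet score over 0.5 was 2.70 to 11.9% and 12.7 to 22.8%, and the median UMIs per cell were 4691 to 5397 and 6185 to 8018.

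Marker lists of other cells were summed in DAM. The 6 BAM markers summed to 0 to 55.9 CPM in non-diseased and 8.79 to 41.2 CPM in APP/PS1 libraries, with Lyve1 at 0, and the 5 monocyte markers to 0 to 20.5 and 4.94 to 40.4 CPM. The 5 T cell markers and the 5 NK cell markers reached at most 6.59 CPM. The 5 B cell markers summed to 253 to 502 CPM in non-diseased and 290 to 356 CPM in APP/PS1 libraries, with Cd79a and Ms4a1 at 0 (320 CPM in HM). The 6 astrocyte markers summed to 162 to 304 and 97.2 to 178 CPM, with Aqp4 and Gfap at 0, the 5 oligodendrocyte markers to 33.0 to 118 and 34.6 to 43.9 CPM and the 5 endothelial markers to 14.7 to 72.3 and 24.7 to 71.8 CPM. The 5 microglial markers summed to 10158 to 14132 CPM in non-diseased and 5946 to 9774 CPM in APP/PS1 libraries. What part these differences had in the results on DAM was not tested.

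Cst7 in DAM rose with amyloid in every pair. It was at 848 CPM in APP/PS1 and 2637 CPM in Nlrp3KO APP/PS1 at 3 months, and the 9-month libraries held 1602 and 2785 CPM. WT DAM held 112, 142 and 205 CPM at 3, 6 and 9 months, and Nlrp3KO DAM held 108, 74.0 and 81.8 CPM. The groups did not overlap, and the lowest APP/PS1 library was far above the highest non-diseased one (log2 fold change 4.12, SE 0.27, adjusted p = 6.6e-11, edgeR, 4 pairs).

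**Figure D3:**
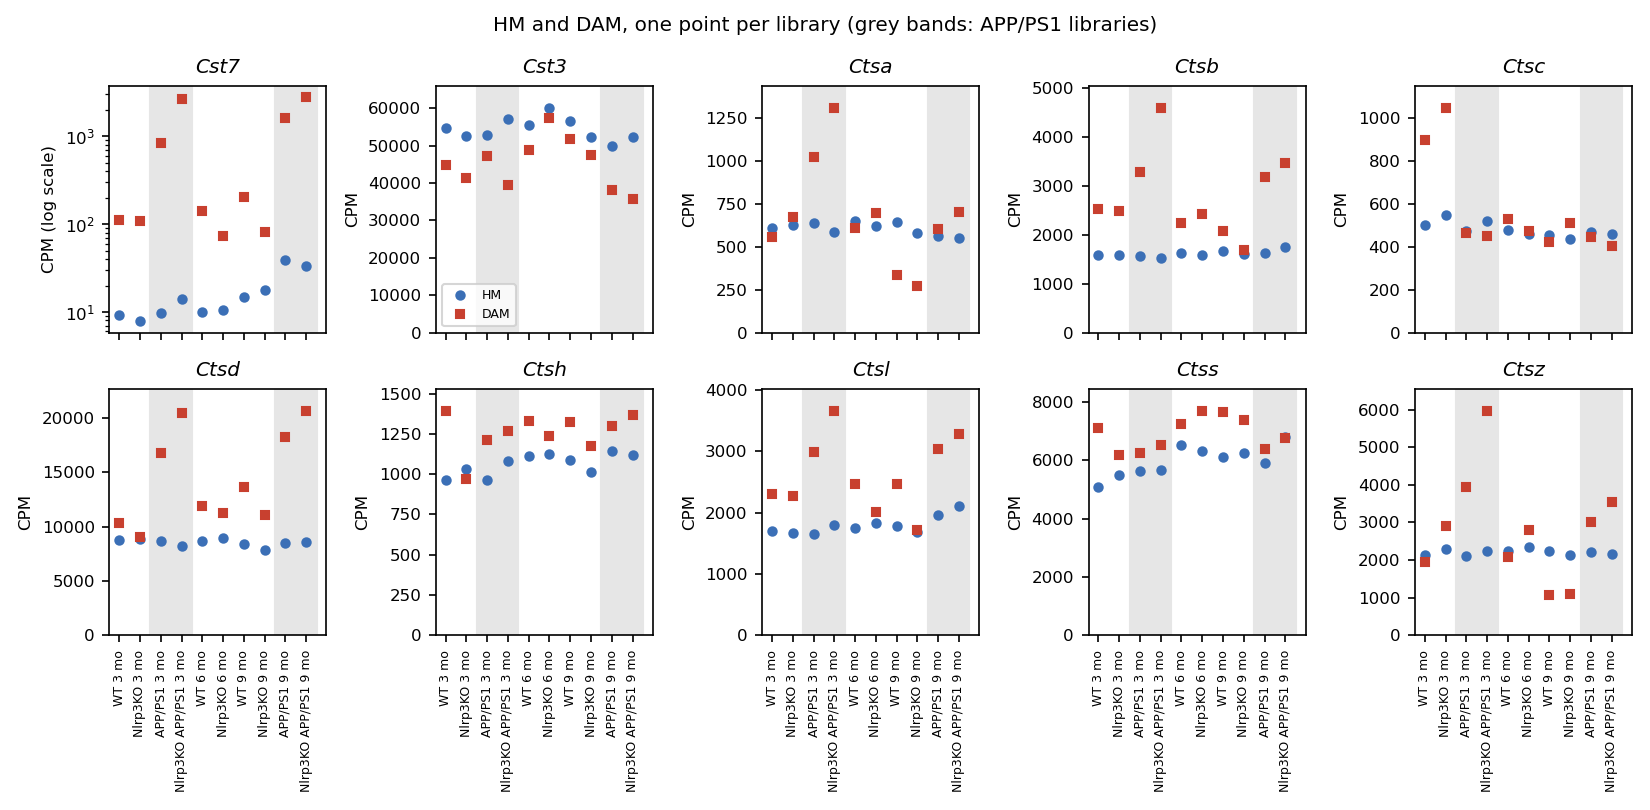
Level of each gene (CPM, y axis; logarithmic for Cst7 only) in HM (blue circles) and DAM (red squares), 1 point per library, with APP/PS1 libraries on grey bands. In DAM, all 4 APP/PS1 libraries lie above all 6 non-diseased libraries for Cst7, Ctsb, Ctsd, Ctsl and Ctsz, whereas HM show no such separation.

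Of the 10 members, 3 were called higher in DAM of APP/PS1 libraries and 0 lower, against 2.87% of 6331 genes called in either direction (153 higher, or 2.42%, and 29 lower). With total UMIs in place of TMM scaling, the same 3 members were called and the split over all genes was 102 higher and 55 lower, with the median log2 fold change of all genes moving from -0.03 to -0.20. By adjusted p alone, 6 members rose, as did 5.91% of all genes. Levels of 5 members did not overlap between the 4 APP/PS1 and 6 non-diseased libraries, all of them higher, as was the case for 2.87% of genes (4.23% were lower throughout). For Ctsz the gap was narrow, 3014 against 2906 CPM, and without doublet scores over 0.5 its groups overlapped, with 2 of 4 APP/PS1 libraries above all non-diseased ones, while the other 4 members still did not overlap. The median over the 10 members was 0.82, against -0.03 for all genes.

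Ctsz was the cathepsin with the largest rise. DAM of APP/PS1 libraries held 3937 CPM (APP/PS1) and 5968 CPM (Nlrp3KO APP/PS1) in the 3-month pair, against 3014 and 3538 CPM in the 9-month pair. Non-diseased DAM ranged from 1080 to 2906 CPM (median 2012 CPM), with both 9-month libraries lowest, at 1080 and 1102 CPM. The APP/PS1 level was higher in 4 of 4 pairs (log2 fold change 1.47, SE 0.15, adjusted p = 1.9e-07, edgeR).

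Ctsa followed, although its groups overlapped. It was at 1024 and 1308 CPM in the 3-month APP/PS1 and Nlrp3KO APP/PS1 libraries and at 607 and 705 CPM in the 9-month ones. Non-diseased DAM held 559 to 697 CPM at 3 and 6 months and 338 and 272 CPM at 9 months, so every pair rose while 9-month APP/PS1 DAM stayed near the younger non-diseased DAM. The log2 fold change was 1.18 (SE 0.15, adjusted p = 9.4e-06, edgeR). With DAM of the annotation of all CD45+ cells, Ctsz and Ctsa were at 0.60 and 0.58 with adjusted p of 0.0119 and 0.0260, under the fold limit, and Cst7 (2.92) was the only member called.

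Ctsd, Ctsb and Ctsl rose with smaller folds, under the limit of the call. Ctsd was at 16808 and 20519 CPM at 3 months and 18307 and 20672 CPM at 9 months in APP/PS1 and Nlrp3KO APP/PS1 DAM, above the non-diseased 9082 to 13647 CPM (log2 fold change 0.96, SE 0.15, adjusted p = 0.000102, edgeR). Ctsb was at 3179 to 4578 CPM against 1677 to 2516 CPM (0.90, SE 0.15, adjusted p = 0.000176), and Ctsl at 2988 to 3660 CPM against 1717 to 2475 CPM (0.73, SE 0.15, adjusted p = 0.00156). With DAM of the other annotation, Ctsb did not pass (0.32, adjusted p = 0.277).

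The other 4 members did not pass. Cst3 in DAM was at 35596 to 47286 CPM in APP/PS1 and 41439 to 57474 CPM in non-diseased libraries, and its fitted log2 fold change was -0.05 (95% interval -0.35 to 0.24) with TMM and -0.22 with total UMIs. Ctss had 0.04 (-0.24 to 0.32) and Ctsh 0.26 (-0.04 to 0.56). Ctsc was at 404 to 461 CPM in the 4 APP/PS1 libraries, at 895 and 1044 CPM in WT and Nlrp3KO DAM at 3 months and at 424 to 527 CPM in the other 4 (log2 fold change -0.43, SE 0.17, adjusted p = 0.144, edgeR). With total UMIs in place of TMM Ctsc passed by adjusted p, still under the fold limit (-0.60, adjusted p = 0.0289). It also passed without the 9-month Nlrp3WT pair (-0.63, adjusted p = 0.0268), and was at -0.22 (adjusted p = 0.566) without the 3-month Nlrp3KO pair. Those 3-month DAM also held the most Cd74, at 1839 and 1897 CPM, against 297 to 1231 CPM in the other 8 libraries.

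**Figure D4:**
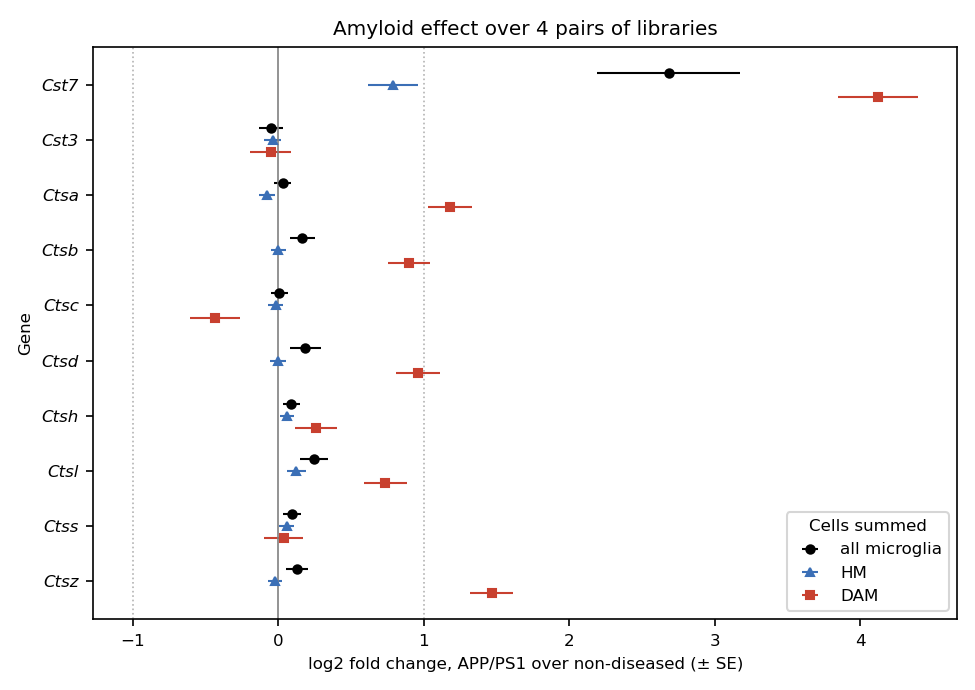
Log2 fold change of APP/PS1 over non-diseased libraries (x axis; bars are ± SE) for each gene over 4 pairs, in all microglia (black circles), HM (blue triangles) and DAM (red squares); dotted lines mark a log2 fold change of 1 in each direction. Cst7 is highest in each set, and Ctsz and Ctsa are the other genes beyond the line, in DAM.

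No member was called for a different amyloid effect at 9 and 3 months within DAM, against 0.332% of 6331 genes (21 genes; 354 at an unadjusted p under 0.05, and 6 called by DESeq2). Cst7 had a difference of 0.04 (SE 0.56) on the log2 scale. The largest was that of Ctsc, 0.90 (SE 0.28, adjusted p = 0.350, edgeR).

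The number of cells with Cst7 was then counted after thinning each cell to 1500 UMIs, a depth that all microglia reached. In HM, 1.75% of 31953 cells had a Cst7 UMI, and in TM 5.67% of 2538 cells. In DAM 36.3% of 901 cells had one (exact binomial interval 33.1 to 39.5%). B cells, a type that should lack Cst7, had 0.188% of 533 cells at the same depth (median 4671 UMIs before thinning, against 5726 in DAM and 4366 in HM). Before thinning the shares were 4.71, 15.5, 51.2 and 0.563%.

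The share of DAM with a Cst7 UMI was higher in all 4 APP/PS1 libraries than in the 6 non-diseased ones, although within a genotype it did not always follow the level. It was 8.82 to 20% in the 6 non-diseased libraries, 41.7% (22.1 to 63.4%, 24 cells) and 71.1% (60.1 to 80.5%) in APP/PS1 and Nlrp3KO APP/PS1 at 3 months, and 38.7% (32.7 to 45.04%) and 56.4% (49.3 to 63.4%) at 9 months. Pooled, 33.5% of the DAM of APP/PS1 libraries held 3 or more Cst7 UMIs after thinning, against 1.77% of those of non-diseased libraries. In HM the share was 4.78 and 4.03% in the 9-month APP/PS1 libraries and 1.14 to 2.52% in the other 8.

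**Figure D5:**
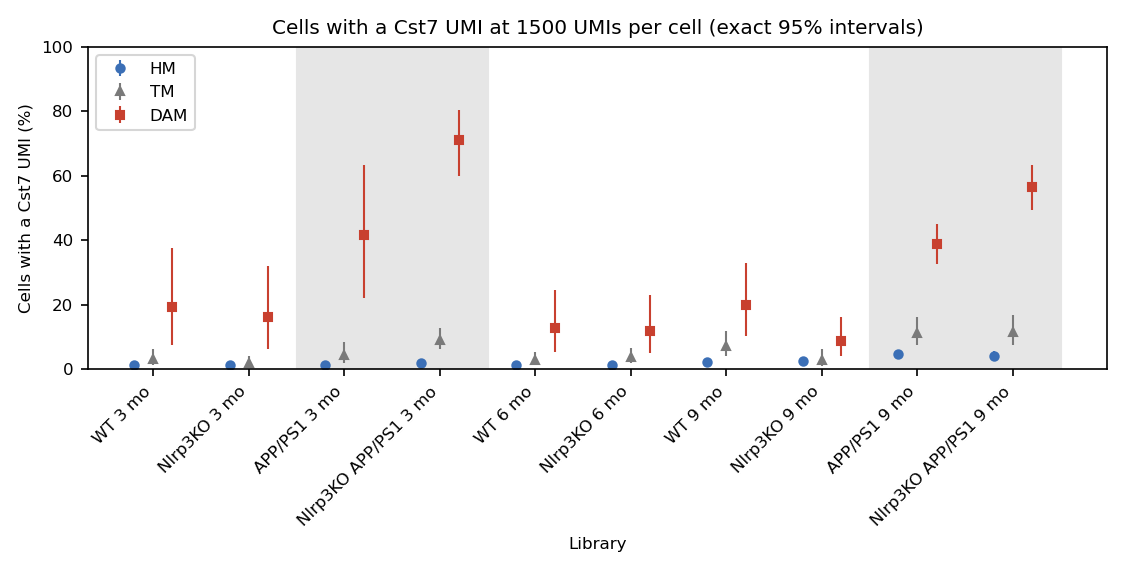
Share of HM (blue circles), TM (grey triangles) and DAM (red squares) with at least 1 Cst7 UMI after thinning to 1500 UMIs per cell (y axis, percent; bars are exact 95% binomial intervals) in each library, with APP/PS1 libraries on grey bands. DAM of the 4 APP/PS1 libraries (38.7 to 71.1%) lie above those of the other 6 (8.82 to 20%).

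Loss of Nlrp3, the question of the study, was compared over 5 pairs of libraries of the same age and background. Over all microglia, 0 of the 10 members were called, against 0.0242% of 12383 genes (3 genes; 574 at an unadjusted p under 0.05, and 6 called by DESeq2). Cathepsin values stayed close to 0: their log2 fold changes ran from -0.02 for Ctsa to 0.06 for Ctss, and none had an unadjusted p under 0.05. The 95% interval for Ctsd was -0.09 to 0.12 and for Ctsb -0.09 to 0.13. Cst7 had 0.44 (SE 0.25, adjusted p = 0.903, edgeR), with 3 of 5 pairs higher in Nlrp3KO. Over 14 alternatives this value ran from 0.08 to 0.68, and its adjusted p was under 0.05 in 0 of them.

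Within DAM, no member was called for Nlrp3 either, against 0.121% of 5789 genes (7 genes; 431 at an unadjusted p under 0.05, and 2 called by DESeq2). Ctsz was higher in the Nlrp3KO library of all 5 pairs, with WT and Nlrp3KO at 1951 and 2906 CPM at 3 months, 2073 and 2808 CPM at 6 months and 1080 and 1102 CPM in the oldest pair. The APP/PS1 libraries, given above, had the same order in both pairs. No share of all genes that kept 1 direction in all 5 pairs was computed to set beside Ctsz. The log2 ratios of the pairs ranged from 0.03 to 0.60, and the fit did not pass (log2 fold change 0.39, SE 0.11, adjusted p = 0.198, edgeR). Over 13 alternatives the value ran from 0.17 to 0.49, and its adjusted p was under 0.05 in 2 of them, without the 9-month non-diseased pair (0.49, adjusted p = 0.0265) and with no filter on low counts (0.42, adjusted p = 0.0344).

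Whether the Nlrp3 difference depended on amyloid was tested as an interaction. Over all microglia it called 0 members and 0% of 12383 genes (310 at an unadjusted p under 0.05). Cst7 had a difference of 1.27 (SE 0.23, unadjusted p = 0.000857, adjusted p = 1, edgeR), and DESeq2 called it alone (1.27, adjusted p = 0.0126). The Nlrp3KO library was higher in Cst7 in both APP/PS1 pairs (log2 ratio 1.47 at 3 months and 0.81 at 9 months), and the log2 ratios of the non-diseased pairs were -0.06, 0.16 and -0.44 at 3, 6 and 9 months.

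In DAM the interaction called 1 member, Cst7, which was the only gene called of 5789 (0.0173%). The log2 ratio of Nlrp3KO to Nlrp3WT DAM was 1.64 and 0.80 in the APP/PS1 pairs at 3 and 9 months, and -0.05, -0.94 and -1.33 in the non-diseased pairs at 3, 6 and 9 months. The difference was 2.17 (SE 0.32, adjusted p = 0.00102, edgeR, 5 pairs). It rested on 18 to 60 Cst7 UMIs per non-diseased DAM library, and it was not called without doublet scores over 0.5 (1.54, adjusted p = 0.575), without the 9-month non-diseased pair (1.82, adjusted p = 0.184) or with DAM of the annotation of all CD45+ cells (1.82). Ctsl, Ctsd and Ctsb had differences of 0.57, 0.50 and 0.46 with an unadjusted p under 0.05, and all members but Cst7 had an adjusted p of 1.

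With age, the non-diseased libraries are described with no test, as 1 library per genotype, age and batch. Cst7 over all microglia was at 15.8 and 15.2 CPM in WT and Nlrp3KO at 3 months, 17.8 and 19.9 CPM at 6 months and 40.0 and 29.4 CPM in the oldest libraries, which were highest in both genotypes. Ctss over all microglia was at 5213 and 5634 CPM in WT and Nlrp3KO at 3 months, 6819 and 6691 CPM at 6 months and 6396 and 6522 CPM in the oldest libraries. Both older ages were above 3 months in both genotypes. Ctsh was at 980 and 1051 CPM at 3 months, 1163 and 1169 CPM at 6 months and 1131 and 1044 CPM at 9 months, so the 9-month Nlrp3KO library was back at the 3-month level. Ctsc was lower at the older ages, with 524 and 578 CPM in WT and Nlrp3KO at 3 months, 499 and 492 CPM at 6 months and 490 and 463 CPM in the oldest libraries.

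The wider family was mostly silent in microglia. Of 15 other cathepsin genes in the matrix, 6 had a UMI in microglia and 4 passed the filter over all microglia. In the comparisons within DAM 2 of them were tested, Ctsf and Ctso. None was called in a comparison in which it was tested. Ctsf, a lysosomal cysteine protease, was at 267 CPM in HM and 173 CPM in DAM, lower in DAM in all 10 libraries, and Ctso was at 109 and 101 CPM. Of 23 other cystatins and protease inhibitors in the matrix, 9 had a UMI in microglia. Cstb, the gene of the cytosolic inhibitor stefin B, was at 72.8 CPM in HM and 109 CPM in DAM, Timp2, an inhibitor of metalloproteases, at 588 and 823 CPM, and Serpinb9, an inhibitor of granzyme B, at 11.8 and 13.95 CPM.

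In DAM of APP/PS1 libraries, 1 of 2 such inhibitors tested was called higher, against 2.42% of all genes: Cstb (log2 fold change 1.09, SE 0.22, adjusted p = 0.00171, edgeR), and Timp2 had 0.84 (adjusted p = 0.000534). With 2 genes tested, that share says little about such inhibitors as a group. The groups of Cstb overlapped, at 98.8 to 207.5 CPM in APP/PS1 and 36.2 to 147 CPM in non-diseased DAM. Of 21 genes for the processing, transport and partners of cathepsins, 3 were called higher and 0 lower, against 2.42% of all genes called higher, and 7 rose by adjusted p alone, against 5.91%, with a median of 0.38 against -0.03 for all genes. The 3 were the dipeptidase gene Dpp7 (2.21, SE 0.31, adjusted p = 3.0e-05), the β-galactosidase gene Glb1 (1.15, SE 0.25, adjusted p = 0.00378) and Cd68, a lysosomal membrane protein of macrophages (1.03, SE 0.15, adjusted p = 4.5e-05). None of the list was called for amyloid or Nlrp3 over all microglia.

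Between states, Cd74, the invariant chain, had the largest ratio of pooled DAM to pooled HM level in that list, with 20.4 CPM in HM and 960 CPM in DAM, and was higher in DAM in all 10 libraries. Dpp7 was at 31.4 and 61.5 CPM pooled, with library medians of 33.0 and 42.4 CPM, and was higher in DAM in 4 of 4 APP/PS1 and 2 of 6 non-diseased libraries. The carboxypeptidase gene Scpep1 was at 59.0 and 99.5 CPM pooled, with library medians of 61.1 and 95.9 CPM. Cd74 was called for a different amyloid effect at 9 and 3 months in DAM (2.28, SE 0.28, adjusted p = 7.4e-06, edgeR), which was the only call in the 3 lists for that comparison. At 3 months Cd74 in DAM was lower with amyloid, at 439 CPM in APP/PS1 against 1839 CPM in WT. Nlrp3KO APP/PS1 held 491 CPM against 1897 CPM in Nlrp3KO. At 9 months it was higher with amyloid, at 986 against 687 CPM and 1231 against 1098 CPM in the same pairs. Cd74 was not called for this difference with DAM of the annotation of all CD45+ cells (1.16, adjusted p = 0.896, edgeR) or without the 9-month Nlrp3WT pair (2.21, adjusted p = 0.103, edgeR).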

How the data were processed

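The authors deposited UMI counts per gene and cell, not normalized, made with Cell Ranger against mouse mm10, for CD45+ cells of 10 labelled libraries. The authors also deposited 2 annotations, of all cells and of the microglia, with cell types, states, batch numbers, mitochondrial UMIs as a percent and ribosomal UMIs as a fraction of the UMIs of each cell, and doublet scores that run as a fraction from 0 to 1. Cells that stood out in library size, number of genes or mitochondrial share had been removed by the authors. Per the labels, 2 sample names of the matrix (6897 cells) match no sample and were not used. Whether counting used strand is not given in the sources used here, so genes that overlap others (Ctsa, Ctsb, Ctsc, Ctsd, Ctsl, Ctss and Ctsz) are uncertain where reads are shared.

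UMIs were summed per library, since cells are not replicates, and genes that passed filterByExpr were tested with edgeR 4.0.16 (TMM, quasi-likelihood F test, Benjamini-Hochberg over all genes), with the pair of same-age libraries as a block and both call limits given above. DESeq2 1.42.0 was an alternative. With 1 pool of mice per group, p-values rest on the spread between pairs, on 2 to 4 residual degrees of freedom in the main fits. Alternatives had 1 (amyloid by age in DAM without a pair) to 5 (Nlrp3 with additive terms). The quasi-likelihood test also borrows dispersion from all genes, so a p-value does not rest on the pairs of its gene alone. Doublets were kept in the main results and left out (score over 0.5) in an alternative. Thinning drew 1500 UMIs per cell without replacement. Exact Poisson and binomial intervals cover counting error only, whereas the intervals of fitted log2 fold changes come from the edgeR test.

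The genes named are the members, list genes that were called or, between states, the 3 of each list with the largest DAM to HM ratio, and the 3 genes most like each member (1 of the 3 is not reported here for Cst3 and for Ctsa). Members and lists were chosen with earlier results of these data known, and comparisons within DAM, without DAM and with total UMIs were added after the data were seen. Promoter windows are from RefSeq (GRCm38.p6) and gene positions from GENCODE M21.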

Additional observations from a re-analysis of the deposited data

Results flagged for a closer look

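Cst7 in DAM was the 1 member whose Nlrp3 effect differed between the APP/PS1 and the non-diseased background by a test of the difference (2.17 on the log2 scale, SE 0.32, adjusted p = 0.00102, edgeR over 5 pairs). Nlrp3KO DAM were higher in 2 of 2 APP/PS1 pairs and lower in 3 of 3 non-diseased pairs, of which the 3-month pair (log2 ratio -0.05, from 18 and 22 UMIs) was level within counting error. Without doublet scores over 0.5 the 6-month pair turned, with 64.6 CPM in WT and 82.6 CPM in Nlrp3KO DAM. The 9-month non-diseased pair carries the widest gap among the latter (205 CPM in WT and 81.8 CPM in Nlrp3KO, from 60 and 43 UMIs), and without it the difference was 1.82 (adjusted p = 0.184). Without doublet scores over 0.5 it was 1.54 (adjusted p = 0.575). The part of doublets and of cell selection in this difference was not tested further. Nor was that of the small number of DAM in non-diseased libraries and in APP/PS1 at 3 months (24 cells).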

How the results depend on the processing

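The labels give no replicate number, so the block was the pair of libraries of the same age and of the same Nlrp3 genotype or background. With additive terms in place of the pair, 0 members were called for amyloid and 0 for Nlrp3 over all microglia. Of the recomputed counts and shares, 86 stayed within 1.5 times or the interval of the reported value and 10 did not. DESeq2 called 1 member for amyloid and 1 for Nlrp3 by background, Cst7 in both. Amyloid in DAM called 6 members by adjusted p alone, 1 with DAM of the annotation of all CD45+ cells and 3 to 4 when a pair was left out. Nlrp3 by background in DAM called 0 members without doublet scores over 0.5, 0 with the annotation of all CD45+ cells, and 0 to 1 when a pair was left out. Over the alternatives that kept both call limits, amyloid called 0 to 22 genes over all microglia and 46 to 273 in DAM, and Nlrp3 2 to 8 and 2 to 24. There, the interactions called 0 to 6 (amyloid by age) and 0 to 1 (Nlrp3 by background) over all microglia, and 0 to 34 and 0 to 6 in DAM. By adjusted p alone, 7 genes passed for amyloid over all microglia and 482 in DAM. Without thinning, 4.71% of HM, 15.5% of TM and 51.2% of DAM had a Cst7 UMI.

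Signs turned for these log2 values. For amyloid, HM alone gave -0.0775 for Ctsa, -0.0168 for Ctsc, -0.000526 for Ctsd and -0.0219 for Ctsz. Ctsa was at -0.0100 without doublets and -0.0211 without DAM, and Ctsc at -0.00877 with total UMIs. Leaving out a pair gave -0.0209 to 0.0676 for Ctsa and -0.0445 to 0.0462 for Ctsc. In DAM, Cst3 was at 0.00194 with no filter and -0.147 to 0.0472 without a pair, and Ctss at -0.128 with total UMIs and -0.0386 to 0.110 without a pair. Cst7 in DAM ranged from -0.0270 to 0.863 for Nlrp3 and from -1.09 to 1.20 for amyloid by age without a pair, and was at -0.0213 for amyloid by age without doublets. The DAM to HM ratio of Ctsa was -0.00337 on the log2 scale without doublets. With no change of sign, the log2 ratio of library medians was 3.82 for Cst7, 0.57 for Ctsd and -0.22 for Cst3, against 6.87, 0.98 and -0.40 for pooled levels. The causes were not tested. Non-diseased libraries held 31 to 102 DAM each and the 3-month APP/PS1 library 24, which limits precision in these libraries.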

Other observations

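Ctse, the gene of the aspartic protease cathepsin E, was chosen for mention after its values were seen. Over all microglia it was tested and not called (amyloid log2 fold change 1.71, SE 0.65, adjusted p = 0.627, edgeR), and in DAM it did not pass the filter on low counts. DAM of the 4 APP/PS1 libraries held 55 Ctse UMIs (13.8 CPM, exact Poisson interval 10.4 to 18.0 CPM), with 0 and 10 in APP/PS1 and Nlrp3KO APP/PS1 at 3 months and 17 and 28 at 9 months. DAM of the 6 non-diseased libraries held 0, which allows up to 1.63 CPM over the group at 3 counts. HM held 34 Ctse UMIs in all (0.232 CPM).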
